A study of Mus musculus with 23 samples.

Results

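This account follows 10 genes that encode proteins of P-bodies and of the mRNA stores of the oocyte, out of 56196 genes counted, through mouse oocytes and early embryos. Samples carry the labels WT, for wild type, or Eif4enif1+/-, called het here. The genes are Ddx6, Lsm14a, Lsm14b, Patl1, Patl2, Zar1, Zar1l, Ybx1, Ybx2 and Ybx3. They were taken by symbol as partners of 4E-T, the product of Eif4enif1, or as Y-box proteins, and each was found once in both count tables. All 10 passed the filter on low counts in both tables.

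Fully grown oocytes at the germinal vesicle (GV) stage, which rest in meiotic prophase, were profiled without treatment as ribosome-bound mRNA (the translatome) and as total mRNA (the transcriptome), with 2 libraries of each fraction from WT and 2 from Eif4enif1+/- oocytes. Embryos were sampled as untreated WT and Eif4enif1+/- 1-cell embryos, as WT and Eif4enif1+/- 2-cell embryos after 24 h of culture, and as arrested Eif4enif1+/- embryos, which had not divided by the end of those 24 h. Each of the 5 embryo groups had 3 libraries. The labels give no strain, age, design of the allele or number of oocytes per library, and for embryos they do not say whether the genotype is that of the embryo or of the mother. Nothing in them says that replicates came from separate animals, so the p-values measure the spread between these libraries, which may be technical.

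A growing oocyte makes far more mRNA than it translates at once, and it keeps the surplus in ribonucleoprotein stores until meiosis resumes and the embryo begins to divide. 4E-T binds the cap-binding protein eIF4E and so holds a message away from the translation machinery. It also recruits the RNA helicase DDX6, the LSM14 proteins and the PAT1 family, which couple repression of a message to its decapping. Y-box proteins coat mRNA along its length, and the ZAR proteins bind maternal messages through zinc fingers. In mice most maternal mRNA is cleared around the 2-cell stage, when the embryo's own genome becomes active.

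Eif4enif1 itself was read first as a check of the labels. Its level in CPM, the counts of a gene scaled by library size and TMM factor, was 217 and 222 in the WT transcriptome and 87.2 and 96.0 in the het transcriptome. In the translatome it was 312 and 270.0 in WT and 149.8 and 97.1 in het oocytes. The genotypes did not overlap in either fraction. The fitted log2 fold change in edgeR's quasi-likelihood test with Benjamini-Hochberg adjustment was -1.26 (SE 0.26, adjusted p = 0.0283) in the transcriptome and -1.24 (SE 0.26, adjusted p = 0.0224) in the translatome. In 1-cell embryos Eif4enif1 ranged from 134 to 177 CPM in WT and from 69.1 to 72.0 in het libraries, and in 2-cell embryos from 55.3 to 76.2 in WT and from 38.2 to 54.8 in het libraries. The fitted log2 fold changes in embryos, -1.12 (SE 0.41) at the 1-cell and -0.60 (SE 0.41) at the 2-cell stage, did not pass the test. Arrested het libraries 1 to 3 read 109.5, 28.5 and 62.6 CPM, so the first was above the range of the other het embryo libraries.

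Total counts ran from 3621103 to 50487687 per library in GV oocytes and from 5597333 to 40377212 in embryos. All 14 oocyte markers examined had counts in every GV library. Of 22 granulosa cell markers, genes of the follicle cells that surround the oocyte, 21 or 22 had counts in each translatome library. Their summed level was 833 and 1199 CPM in the het translatome against 308 and 520.2 CPM in the WT translatome. In the transcriptome WT oocytes had 241 and 364 CPM and het oocytes 569.8 and 465 CPM. Much of the translatome sum came from Inha, which ranged from 454.2 to 740.3 CPM in het and from 90.05 to 265.9 CPM in WT oocytes. Not every marker followed the sum. Cyp19a1 had a lower mean in het oocytes, at 26.77 against 33.45 CPM on ribosomes and 29.83 against 44.19 CPM in total mRNA. The marker Ptx3 had no count in the 4 WT libraries, but it was also scarce in het oocytes, where it reached at most 0.366 CPM. Het 1-cell libraries 1 and 3 stood apart from the other 1-cell libraries. Their 100 most abundant genes took 6.34% and 5.53% of counts, against 32.06% to 38.05% in the other 4, and their TMM factors were 2.02 and 2.15, against 0.798 to 0.898. Arrested library 1 stood apart from arrested libraries 2 and 3 in 14 markers of the 2-cell stage, which summed to 471 CPM against 6049 and 2994 CPM. In bulk libraries fewer cells of a type and less RNA per cell cannot be told apart.

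Upstream sequences are shown for the 4 genes that were lower at the 2-cell stage in both genotypes (Lsm14b, Patl1, Patl2 and Zar1) and for Ybx1, which was higher there in het embryos. They come from RefSeq, build GRCm38.p6 (mm10), where 9 of the 10 genes matched; Ddx6 did not. Each run ends at the base before the gene's outermost annotated start and reads 5′ to 3′ along the gene's strand. Capitals mark the CCAAT box or its reverse complement, a motif bound by the factor NF-Y and known from the promoters of many genes.
Lsm14b (chr2:180024737-180024986, plus strand): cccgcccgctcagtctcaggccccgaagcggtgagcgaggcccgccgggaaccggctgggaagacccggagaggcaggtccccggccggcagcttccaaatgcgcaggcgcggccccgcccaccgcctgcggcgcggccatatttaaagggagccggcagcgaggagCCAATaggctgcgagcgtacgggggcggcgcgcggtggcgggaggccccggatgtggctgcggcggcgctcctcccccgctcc
Patl1 (chr19:11912149-11912398, plus strand): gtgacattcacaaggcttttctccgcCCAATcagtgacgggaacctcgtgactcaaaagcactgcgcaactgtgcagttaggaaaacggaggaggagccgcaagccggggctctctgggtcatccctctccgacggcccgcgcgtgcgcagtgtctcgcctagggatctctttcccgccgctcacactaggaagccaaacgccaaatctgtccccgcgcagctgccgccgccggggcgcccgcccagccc
Patl2 (chr2:122186190-122186439, minus strand): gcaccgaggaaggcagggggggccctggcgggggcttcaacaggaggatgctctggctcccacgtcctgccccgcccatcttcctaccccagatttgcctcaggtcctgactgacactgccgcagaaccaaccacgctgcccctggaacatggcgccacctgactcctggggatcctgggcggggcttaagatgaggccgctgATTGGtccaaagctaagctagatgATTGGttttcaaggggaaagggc
Zar1 (chr5:72581255-72581334, minus strand): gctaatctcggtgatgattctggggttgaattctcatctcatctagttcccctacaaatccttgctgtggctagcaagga
Ybx1 (chr4:119294605-119294763, minus strand): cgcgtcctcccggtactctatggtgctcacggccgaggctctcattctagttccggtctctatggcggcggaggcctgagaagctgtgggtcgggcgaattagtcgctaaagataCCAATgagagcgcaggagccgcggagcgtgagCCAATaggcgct

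Over the full 250 bases before each RefSeq start, CCAAT was found on either strand 3 times for Ybx1, 2 times for Patl2 and 1 time each for Lsm14b, Patl1 and Zar1l. Ybx2 has 2 starts in the table, and the first had 2 matches and the second none. No match lay in the window of Lsm14a, Zar1 or Ybx3. For Zar1 and Ybx1 the annotated gene begins inside this window, so the runs above are shorter than it, and 1 match of Ybx1 is not shown. The motif was present in 33.8% of the 32851 promoters of the same length. The windows of Lsm14b, Patl2, Zar1 and Zar1l were 76.0%, 62.4%, 55.6% and 42.8% G and C, against a median of 52.4% over all promoters, and Zar1l was the only one of the 9 genes below it. The letters TAATTG, read on both strands as an element of the oocyte factor NOBOX, occurred 2 times in the window of Zar1l and in no other member's, against 7.17% of all promoters. The E-box letters CANNTG were in the windows of 8 of the 9 genes and in 66.2% of all promoters. A match is a string of letters, and binding was not measured.

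The 10 genes differed widely in level. Per kilobase of annotated exon, total mRNA of WT GV oocytes was led by Zar1l at 726 ± 28.9 CPM per kb (mean ± SD, n = 2) and Zar1 at 484 ± 48.1. Then came Patl2 at 35.3 ± 8.75, Ybx2 at 29.7 ± 8.61, Ybx3 at 23.1 ± 16.1, Ybx1 at 20.1 ± 8.23, Lsm14b at 15.5 ± 10.2 and Lsm14a at 15.1 ± 4.65. Patl1 at 1.39 ± 0.478 and Ddx6 at 0.597 ± 0.123 CPM per kb were lowest. The spreads of neighbours overlapped from Patl2 down to Lsm14a, and did not overlap at the steps from Zar1l to Zar1, from Zar1 to Patl2, from Lsm14a to Patl1 or from Patl1 to Ddx6. In every GV library Zar1 and Zar1l ranked between 54 and 261 among all genes by level per kilobase. The annotated exons of Zar1l span 895 bases and those of Zar1 3465, and the length enters this scale directly.

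Among WT 1-cell embryos Zar1 led at 185 ± 49.7 CPM per kb (mean ± SD, n = 3), followed by Lsm14a at 50.2 ± 13.7, Lsm14b at 32.1 ± 13.4, Ybx1 at 31.4 ± 5.58, Zar1l at 24.4 ± 15.1 and Ybx3 at 17.4 ± 10.2. From Lsm14a to Ybx3 the spreads of neighbours overlapped. Patl2 at 5.46 ± 1.16, Patl1 at 5.08 ± 1.72 and Ybx2 at 3.63 ± 1.17 formed a lower group, and Ddx6 was lowest at 0.625 ± 0.183 CPM per kb. In WT 2-cell embryos Ybx1 led at 50.7 ± 10.9 CPM per kb, followed by Zar1l at 27.9 ± 4.29 and Lsm14a at 21.8 ± 1.34. Zar1 stood at 1.93 ± 1.21 CPM per kb there and Patl2 was lowest at 1.04 ± 0.236. GV and embryo tables were scaled separately, so orders are compared within each.

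The first comparison asked which messages on ribosomes differed between het and WT oocytes. Ybx3 and Lsm14b rose and Ybx1 fell in the het translatome, and the other 7 genes did not pass the test. Ybx3 (chr6:131364855-131388476, minus strand), which encodes the Y-box protein also known as MSY4 or CSDA, read 15.1 and 15.2 CPM in the WT translatome and 162 and 178 CPM in the het translatome. The groups were far apart and each pair of libraries lay close together. The fitted difference was 11.2-fold, a log2 fold change of 3.49 (SE 0.45, adjusted p = 0.0026), and it stayed between 3.43 and 3.61 with a call under all 10 alternative settings tried.

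Lsm14b (chr2:180024987-180035465, plus strand), one of the pair of LSM14 proteins that bind 4E-T and DDX6, read 23.4 and 12.7 CPM in the WT translatome and 77.7 and 72.4 CPM in the het translatome. The lowest het library was above the highest WT library. The fit gave a 4.13-fold difference, a log2 fold change of 2.05 (SE 0.46, adjusted p = 0.0278). Its call ended without het library 1 (adjusted p = 0.102), without het library 2 (adjusted p = 0.0668) and without WT library 2 (adjusted p = 0.0841), at similar sizes of effect.

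Ybx1 (chr4:119277981-119294604, minus strand), the broadly expressed Y-box protein that packages mRNA, went the other way. It read 75.4 and 67.2 CPM in the WT translatome and 27.3 and 32.7 CPM in the het translatome, with no overlap. The log2 fold change was -1.25 (SE 0.29, adjusted p = 0.0312), a 2.38-fold lower level. The call ended when any 1 of the 4 translatome libraries was left out, with adjusted p between 0.0537 and 0.233. Of the gene's 50-base stretches, 15.44% also occur in other genes, chiefly its processed copies, so its counts are uncertain. The copies Gm11560 and Ybx1-ps2 themselves reached at most 1.83 CPM in any GV library.

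Ybx2 (chr11:69935796-69941605, plus strand), or MSY2, is the Y-box protein specific to germ cells. It read 23.2 and 41.9 CPM in the WT translatome and 95.5 and 54.9 CPM in the het translatome, a log2 fold change of 1.21 (SE 0.36, adjusted p = 0.0727) that did not pass. DESeq2 gave it an adjusted p of 0.0236. Among the other partners of 4E-T, Lsm14a differed by -0.58 (SE 0.27), Ddx6 by 0.79 (SE 0.37), Patl2 by 0.67 (SE 0.32) and Patl1 by -0.30 (SE 0.34) on the log2 scale. Zar1 differed by 0.32 (SE 0.40) and Zar1l by 0.47 (SE 0.24). Of all 22409 genes tested, 2.61% were called higher and 2.01% lower in the het translatome, against 2 and 1 of the 10. The median log2 fold change of the 10 genes was 0.57 and that of all genes 0.04. Of 21 granulosa markers tested, 5 were higher and none lower in this comparison, and their part in the differences of the 10 genes was not tested.

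Total mRNA showed no call among the 10 genes. Ybx3 read 106 and 36.0 CPM in the WT transcriptome and 84.2 and 161 CPM in the het transcriptome, so that the genotypes overlapped, and its log2 fold change was 0.80 (SE 0.41, adjusted p = 0.307). Lsm14b read 65.6 and 24.1 CPM in WT against 55.2 and 117 CPM in het oocytes, again overlapping, a difference of 0.96 (SE 0.44, adjusted p = 0.254). For both genes WT transcriptome library 1 was more than 2 times as high as library 2. Without that library Ybx3 differed by 1.76 (adjusted p = 0.0333), Lsm14b by 1.84 (adjusted p = 0.0482) and Ybx1 by 1.31 (adjusted p = 0.0467). These were the highest values over all alternatives, and the lowest, also with 1 library left out, were 0.23, 0.35 and 0.49, with adjusted p up to 0.91, 0.898 and 0.608.

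Ybx1 read 65.6 and 36.1 CPM in the WT transcriptome and 94.0 and 87.2 CPM in the het transcriptome. Both het libraries were above both WT libraries, and the log2 fold change of 0.83 (SE 0.29, adjusted p = 0.135) did not pass. Ddx6 (chr9:44604892-44640731, plus strand), the helicase at the centre of the 4E-T complex, read 4.10 and 5.50 CPM in WT and 14.7 and 10.04 CPM in het oocytes without overlap. Its log2 fold change of 1.34 (SE 0.39, adjusted p = 0.0801) also missed the threshold in edgeR. DESeq2 called it at an adjusted p of 0.0156. The Ddx6 value of 14.7 CPM came from 59 counts in het transcriptome library 1, the GV library with the lowest total, 3621103 counts. How many of all genes separate without overlap in the GV comparisons was not counted. Of all genes 1.41% were called higher and 1.14% lower in the het transcriptome, against 0 of the 10 in either direction. With RLE scaling the split of called genes moved from 317 higher and 255 lower to 346 and 181. Of the 10 genes, 4 had an unadjusted p under 0.05 in the edgeR test, as did 4389 of all 22409 genes. DESeq2 called 1 of the 10, among 1401 genes in all. Among granulosa markers 6 of 21 were higher and none lower.

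**Figure D1:**
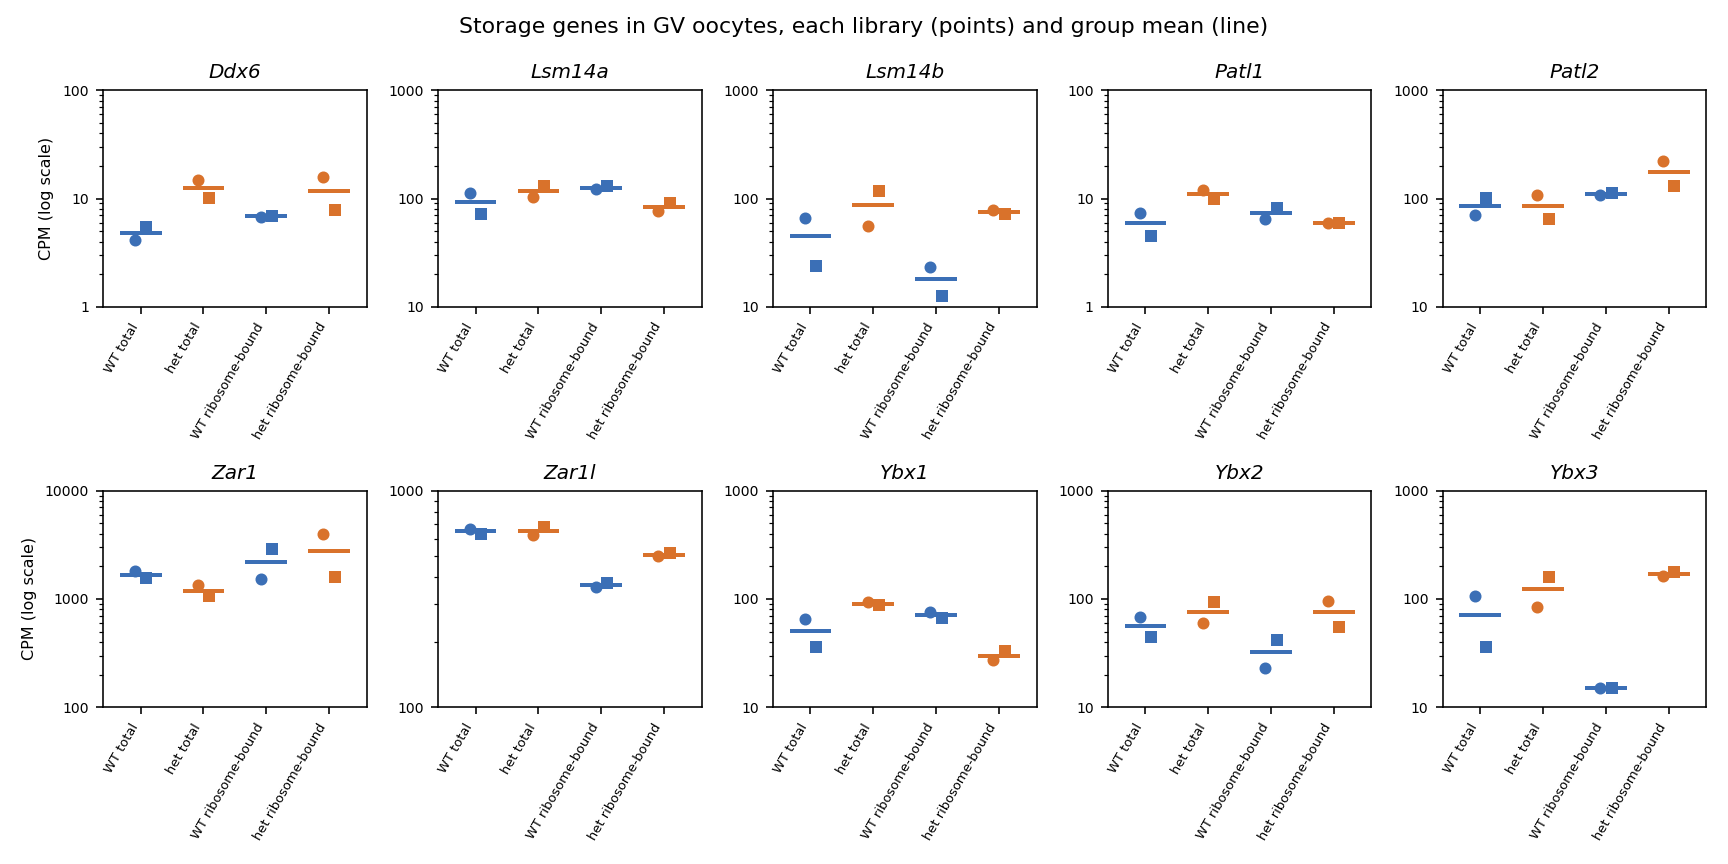
Levels of the 10 genes in GV oocytes as TMM-scaled CPM on a log axis, with 1 point per library (circle, replicate 1; square, replicate 2), a line at each group mean, WT in blue and het in orange. Ybx3 in ribosome-bound mRNA sits at 15.1 and 15.2 CPM in WT and at 162 and 178 CPM in het oocytes, while its total mRNA overlaps between genotypes.

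Both fractions of a GV sample carry the same specimen number, so the level on ribosomes can be set against total mRNA within a specimen. In WT oocytes Ybx3 was under-represented on ribosomes. Its ratio of translatome to transcriptome CPM was 0.142 in WT specimen 1 and 0.423 in WT specimen 2, and the fitted log2 difference was -2.23 (SE 0.43, adjusted p = 0.00651). Without WT transcriptome library 1 it was -1.26 (SE 0.36, adjusted p = 0.055). In het specimens 1 and 2 the ratio was 1.92 and 1.11, a log2 difference of 0.46 (SE 0.41, adjusted p = 0.507).

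Zar1l (chr5:150507055-150518164, minus strand), a paralogue of Zar1 with the same kind of zinc finger, was the other gene called lower on ribosomes in WT oocytes. It read 357 and 374 CPM in the WT translatome against 668 and 631 CPM in the WT transcriptome, a log2 difference of -0.83 (SE 0.24, adjusted p = 0.0348). The call ended without any 1 of the 4 WT libraries, with adjusted p up to 0.152 over all alternatives. In het oocytes Zar1l read 499.6 and 514 CPM on ribosomes and 622 and 678 CPM in total, a log2 difference of -0.36 (SE 0.24, adjusted p = 0.362). Lsm14b had ratios of 0.356 and 0.529 in WT and of 1.41 and 0.617 in het specimens. Its log2 difference in WT was -1.30 (SE 0.45, adjusted p = 0.0666), and with the specimen as a block it was -1.21 (SE 0.30, adjusted p = 0.0171). Without WT transcriptome library 1 it was -0.42 (adjusted p = 0.595).

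In het oocytes Ybx1 was the gene called lower on ribosomes. Its ratio was 0.290 and 0.376 in het specimens 1 and 2 and 1.15 and 1.86 in WT specimens 1 and 2, so the genotypes lay on opposite sides of equality. The log2 difference between fractions was -1.59 (SE 0.29, adjusted p = 0.00667) in het and 0.49 (SE 0.29, adjusted p = 0.262) in WT oocytes. The het call ended without het translatome library 1 or het transcriptome library 2, with adjusted p up to 0.114 over all alternatives. Patl2 (chr2:122120108-122186189, minus strand), the PAT1 paralogue of the oocyte, had nearly equal ratios of 2.06 and 2.04 in the het specimens, against 1.53 and 1.12 in WT. The het log2 difference was 1.05 (SE 0.32, adjusted p = 0.0615), and with the specimen as a block it was 1.03 (SE 0.24, adjusted p = 0.0166). Over all alternatives it ran from 0.64 without het translatome library 1 to 1.50 without het transcriptome library 1, with adjusted p from 0.00491 to 0.563.

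Zar1 (chr5:72576806-72581254, minus strand) was among the most abundant messages in both fractions. It read 1537 and 2888 CPM in the WT translatome, 1794 and 1558 CPM in the WT transcriptome, 3950.0 and 1593 CPM in the het translatome and 1334 and 1055 CPM in the het transcriptome. The 2 translatome libraries of each genotype differed by more than the genotypes did. The 14 oocyte markers varied between the same libraries, summing to 37660 and 88380 CPM in the WT translatome and to 68520 and 33540 CPM in the het translatome, and their part was not tested. Of its 50-base stretches 28.37% occur elsewhere, mostly in Gm42668 and in the pseudogene Gm15847, which itself read 36.4 to 118 CPM in the GV libraries. Fractions differed by 0.40 (SE 0.40) in WT and 1.21 (SE 0.41, adjusted p = 0.0821) in het oocytes on the log2 scale. The het value was 0.44 (adjusted p = 0.635) without het translatome library 1 and 1.75 (adjusted p = 0.0135) without het translatome library 2.

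Lsm14a (chr7:34344646-34393315, minus strand) read 122 and 129.6 CPM in the WT translatome and 113 and 72.5 CPM in the WT transcriptome. In het oocytes it read 76.0 and 91.7 CPM on ribosomes and 103 and 130.0 CPM in total. Its ratios were 1.08 and 1.79 in WT and 0.740 and 0.705 in het specimens, on opposite sides of equality as for Ybx1. An antisense gene, Gm12764, shares 344 bases of Lsm14a exon, and the counting is not stated to use strand, so reads of the pair cannot be told apart there. Patl1 (chr19:11912399-11945091, plus strand), the decapping scaffold of somatic cells, was low throughout at 4.52 to 11.99 CPM. Of all genes 8.95% were higher and 5.64% lower on ribosomes in WT, and 6.19% higher and 1.91% lower in het oocytes, against 2 of 10 lower in WT and 1 of 10 lower in het. The WT fractions also differed in markers, with 8 of 21 granulosa markers and 4 of 14 oocyte markers higher on ribosomes and none lower, whose part in these values was not tested.

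The difference between genotypes in the fraction effect was tested as an interaction. No member passed, and 3 genes in all, 0.0134%, did. Ybx3 had an interaction of 2.69 on the log2 scale (95% interval 1.42 to 3.96, adjusted p = 0.308) and Ybx1 of -2.08 (95% interval -2.96 to -1.20, adjusted p = 0.231). With the specimen as a block Ybx1 stood at -2.14 (SE 0.36, adjusted p = 0.0886). In the edgeR test 4 of the 10 genes, these 2 with Lsm14a at -0.92 and Patl1 at -1.16, had an unadjusted p under 0.05. So did 1999 of all 22409 genes. DESeq2 called Ybx1 and Ybx3, among 108 genes in all. Intervals of the interaction included 0 for the other 6 genes.

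**Figure D2:**
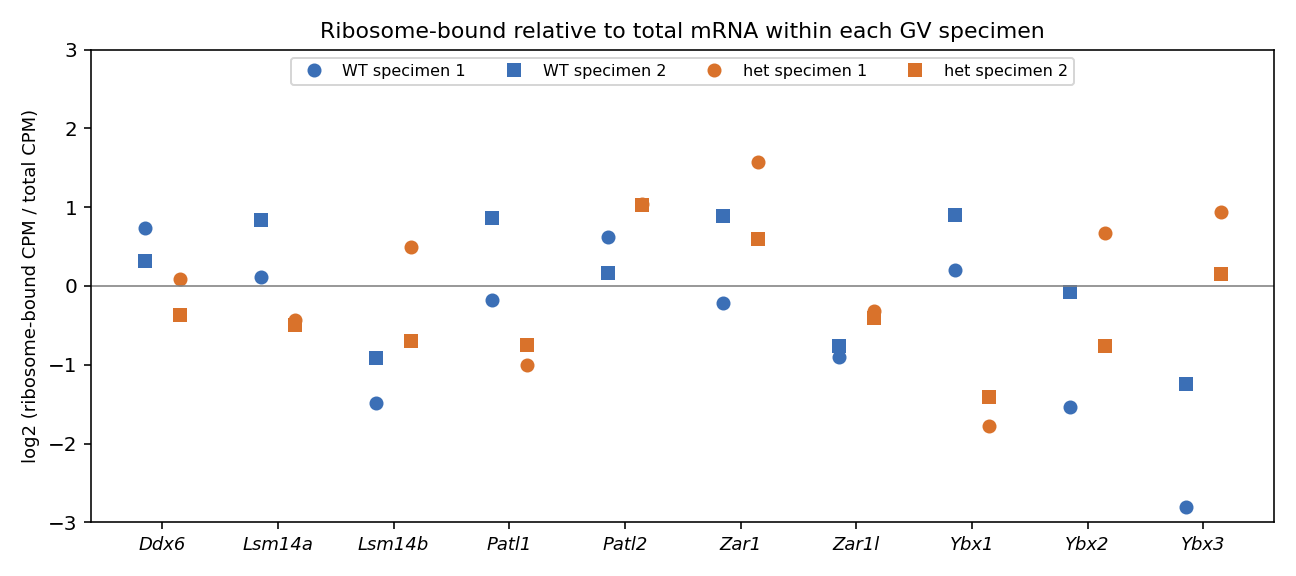
Log2 ratio of ribosome-bound to total CPM for each gene within each GV specimen (circle, specimen 1; square, specimen 2; WT in blue, het in orange), with a line at equal levels. Ybx1 lies above the line in both WT specimens and below it in both het specimens, and Ybx3 shows the reverse.

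Other genes of P-bodies and mRNA storage, a list of 48 of which 47 were tested in each table, moved in both directions in oocytes. In the het translatome 3 were higher and 3 lower, against 2.61% and 2.01% of all genes. The decapping-complex subunits Lsm1 and Lsm7 were higher by 1.07 (SE 0.23) and 1.23 (SE 0.32) on the log2 scale, and the eIF4E homologue Eif4e2 by 0.88 (SE 0.23). The lower genes were Eif4enif1 itself, Atxn2l at -1.49 (SE 0.34) and the RNA-binding protein Igf2bp2 at -1.10 (SE 0.26). The median of the list was -0.05. In the het transcriptome Fmr1, Pabpc1 and Zfp36l2 were higher by 2.46 (SE 0.35), 1.86 (SE 0.32) and 2.01 (SE 0.47), and Eif4enif1 was the only one lower.

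Between fractions 9 of the 47 were higher and 5 lower on ribosomes in WT oocytes, against 8.95% and 5.64% of all genes. Among the higher ones were Atxn2l at 2.47, Fmr1 at 1.73, Cpeb1 at 1.19, Caprin2 at 1.15, Gigyf2 at 1.13, Dcp1a at 1.02, Pabpc1 at 1.00 and Celf1 at 0.78 (log2). The lower ones were Lsm5 at -1.42, Lsm7 at -1.17, Lsm2 at -1.07, Lsm1 at -0.99 and Eif4e2 at -0.89. So 4 of the 5 lower genes encode small subunits of the LSM ring that binds the ends of deadenylated mRNA. The list was chosen to hold Lsm1 to Lsm7, and Lsm3, Lsm4 and Lsm6 were not called in this comparison. In het oocytes Atxn2l at 1.37 and Cpeb1 at 1.06 were higher, and Pum2 at -1.32, Lsm5 at -1.15 and Lsm3 at -1.10 were lower. None of the 47 passed the interaction test, and 9 had an unadjusted p under 0.05 in edgeR, as did 1999 of all 22409 genes.

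In embryos no member passed the test between het and WT libraries of the same stage. At the 1-cell stage no gene at all was called (0.0% of 23656), 889 had an unadjusted p under 0.05 in edgeR, and DESeq2 called 80, none of them a member. None of the 10 genes had an unadjusted p under 0.05. Zar1 read 448, 776 and 703 CPM in WT libraries and 158, 604 and 115 CPM in het libraries. The 2 low het values belong to libraries 1 and 3, which stood apart as above. The log2 fold change was -1.14 (95% interval -2.67 to 0.40), and -0.07 (SE 0.93) without those libraries, a fit in which the 1 het 1-cell library left is assumed to vary like the other groups.

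Zar1l read 36.5, 19.1 and 9.96 CPM in WT 1-cell and 41.0, 45.3 and 41.6 CPM in het 1-cell libraries without overlap, a log2 fold change of 0.96 (95% interval -0.29 to 2.22). Lsm14a read 250.4, 269.5 and 404 CPM in WT and 154, 218 and 147 CPM in het libraries, also without overlap, a log2 fold change of -0.83 (95% interval -1.72 to 0.06). Without het 1-cell libraries 1 and 3 it was -0.48 (SE 0.66). Ybx2 ranged from 4.74 to 9.14 CPM in WT and from 10.65 to 11.39 CPM in het 1-cell libraries, again without overlap, at 0.70 (SE 0.60). At the 2-cell stage 1 gene of 23656 (0.00423%) was called by edgeR and 143 by DESeq2, none of them a member. Against 1318 of all genes, Ybx3 alone of the 10 had an unadjusted p under 0.05 in the edgeR test. It read 11.8, 10.5 and 15.9 CPM in WT and 30.1, 50.8 and 18.5 CPM in het 2-cell libraries, with every het library above every WT library, a log2 fold change of 1.38 (SE 0.61, adjusted p = 0.869). Lsm14b at 9.95, 9.02 and 9.05 CPM in WT and 16.8, 14.2 and 14.6 CPM in het 2-cell libraries did not overlap either, at 0.70 (SE 0.36, adjusted p = 0.95). Zar1 at 1.35 (SE 0.73), Ybx2 at 1.23 (SE 0.60) and Ybx1 at 0.57 (SE 0.36) were also higher without overlap in het 2-cell libraries. None of these passed, and how many of all genes separate in this way was not counted.

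**Figure D3:**
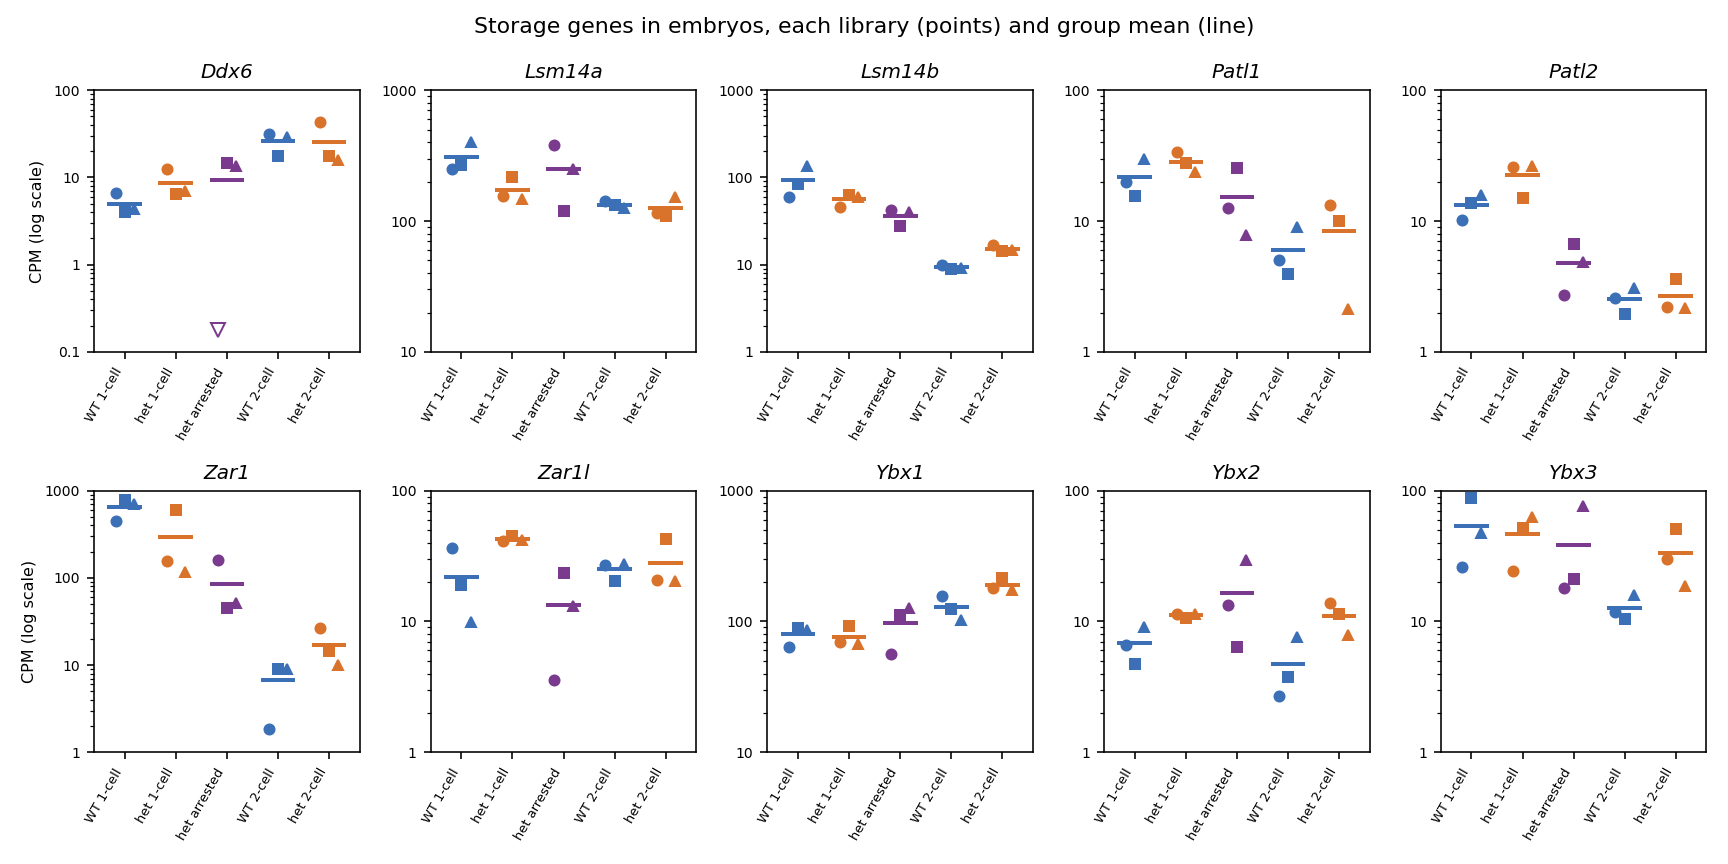
Levels of the 10 genes in embryos as TMM-scaled CPM on a log axis, with 1 point per library (circle, square and triangle for replicates 1 to 3), a line at each group mean, and WT in blue, het in orange and arrested het in purple. The open triangle for Ddx6 is arrested library 1 with no counts, drawn at the level of 3 counts, 0.180 CPM, and Zar1 falls from 448 to 776 CPM in WT 1-cell to 1.87 to 9.11 CPM in WT 2-cell libraries.

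The next comparison set the 2-cell against the 1-cell stage. In WT embryos 6 of the 10 genes fell and none rose, and in het embryos 4 fell and 1 rose. Of all genes, 28.5% were called higher and 17.9% lower in WT, and 22.8% higher and 13.9% lower in het embryos. The median log2 fold change of the 10 genes was -1.53 in WT and -0.55 in het, against 0.59 and 0.36 over all genes. With RLE scaling the medians over all genes were 0.76 and 0.53, so each gene is also given relative to the median of all genes under TMM. Oocyte markers moved at the same time, with 10 of 14 lower and none higher in WT. Of 14 markers of the 2-cell stage 12 were higher in WT and 1, Tcstv1, was lower.

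Zar1 fell most. It read 448, 776 and 703 CPM in WT 1-cell libraries and 1.87, 9.11 and 9.10 CPM in WT 2-cell libraries, from 6541 to 13684 counts down to 59 to 387 counts. The log2 fold change was -6.58 (SE 0.91, adjusted p = 0.000148), a 95.9-fold lower level and -7.17 relative to the median gene. In het embryos it went from 158, 604 and 115 CPM to 26.8, 14.4 and 9.94 CPM, a log2 fold change of -4.10 (SE 0.81, adjusted p = 0.00183). Without het 1-cell libraries 1 and 3 that value was -5.30 (SE 0.86, adjusted p = 0.00522). The copy Gm15847 moved with it in WT, from between 13.3 and 32.1 CPM to at most 0.484 CPM.

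Lsm14b fell in both genotypes with little spread at the 2-cell stage. It read 59.5, 84.0 and 135 CPM in WT 1-cell libraries and 9.02 to 9.95 CPM in WT 2-cell libraries, a log2 fold change of -3.31 (SE 0.39, adjusted p = 8.67e-05) and -3.90 relative to the median gene. In het embryos it read 45.8, 63.6 and 59.3 CPM and then 14.2 to 16.8 CPM, a log2 fold change of -1.89 (SE 0.37, adjusted p = 0.00174). Patl2 read 10.3, 13.7 and 15.9 CPM in WT 1-cell and 2.57, 1.94 and 3.08 CPM in WT 2-cell libraries, a log2 fold change of -2.39 (SE 0.53, adjusted p = 0.00255). In het embryos it went from 26.0, 15.1 and 26.5 CPM to 2.21, 3.63 and 2.17 CPM, by -3.07 (SE 0.55, adjusted p = 0.00101). Without het 1-cell libraries 1 and 3, where Patl2 was highest, the value was -2.64 (SE 0.79, adjusted p = 0.0562). The calls of Zar1, Lsm14b and Patl2 in WT and of Zar1 and Lsm14b in het embryos held under every alternative tried.

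Patl1 fell by 1.86 (SE 0.63, adjusted p = 0.0264) on the log2 scale in WT, from 20.1, 15.4 and 29.9 CPM to 5.005, 3.96 and 8.98 CPM. In het embryos it fell by 1.75 (SE 0.63, adjusted p = 0.0413), from 33.7, 27.7 and 23.9 CPM to 13.2, 10.02 and 2.12 CPM. These calls ended under 4 of 11 alternatives in WT, each without 1 of WT 1-cell libraries 1 and 3 or WT 2-cell libraries 1 and 2, and under 9 of 12 in het, RLE scaling among them. Ybx3 fell in WT from 26.0, 87.6 and 47.3 CPM to 11.8, 10.5 and 15.9 CPM, a log2 fold change of -2.07 (SE 0.63, adjusted p = 0.0149), with adjusted p up to 0.0877 when WT 1-cell library 2 or WT 2-cell library 1 or 2 was left out. In het embryos Ybx3 read 24.5, 51.8 and 62.9 CPM and then 30.1, 50.8 and 18.5 CPM, with overlap, at -0.49 (SE 0.60, adjusted p = 0.543).

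Lsm14a fell in WT by 1.20 (SE 0.42, adjusted p = 0.0296) on the log2 scale, from 250.4 to 404 CPM down to 127 to 143 CPM. Its call ended under 7 of 11 alternatives, with RLE scaling, without the filter on low counts and when any library but WT 1-cell library 1 was left out. In het embryos it read 147 to 218 CPM and then 109.8 to 152 CPM, at -0.46 (SE 0.42). Ybx1 rose in het embryos, from 69.4, 92.2 and 67.7 CPM to 180.2, 216 and 175 CPM, a log2 fold change of 1.32 (SE 0.37, adjusted p = 0.0129). Without het 1-cell libraries 1 and 3 it was 0.91 (SE 0.57, adjusted p = 0.352). In WT the libraries did not overlap either, at 63.2, 88.5 and 86.8 CPM and then 157, 125 and 103 CPM, with 0.69 (SE 0.37, adjusted p = 0.128). Relative to the median gene Ybx1 stood at 0.95 in het and at 0.10 in WT.

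Ddx6, Ybx2 and Zar1l passed in neither genotype in the model of all groups. Ddx6 read 6.71, 4.04 and 4.31 CPM in WT 1-cell libraries and 31.7, 17.6 and 28.8 CPM in WT 2-cell libraries without overlap, a log2 fold change of 2.37 (SE 1.02, adjusted p = 0.067). It passed with RLE scaling at an adjusted p of 0.0483, by DESeq2 at 0.0212, without the filter on low counts and in the fit of the compared groups alone. In het embryos Ddx6 read 12.4, 6.44 and 6.90 CPM and then 43.4, 17.7 and 16.0 CPM, at 1.58 (SE 0.99, adjusted p = 0.213). It passed in the fit of the compared groups alone, at 1.67 (SE 0.52, adjusted p = 0.025). Ybx2 stood at -0.54 (SE 0.59) in WT and -0.01 (SE 0.59) in het, and Zar1l at 0.19 (SE 0.59) and -0.61 (SE 0.59). The 2 stages also differed in culture, since 2-cell embryos had been cultured for 24 h, so stage and culture cannot be told apart.

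No member passed the test of a difference in stage change between genotypes, in which 1 gene of all (0.00423%) was called. Zar1 had an interaction of 2.48 (95% interval 0.30 to 4.67) and Lsm14b of 1.43 (95% interval 0.35 to 2.51) on the log2 scale, the 2 members with an unadjusted p under 0.05 in edgeR, both at an adjusted p of 1. Without het 1-cell libraries 1 and 3 these were 1.36 (SE 1.18) and 1.19 (SE 0.77). DESeq2 called no member. Of all genes tested in edgeR, 1049 had an unadjusted p under 0.05 for this interaction.

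**Figure D4:**
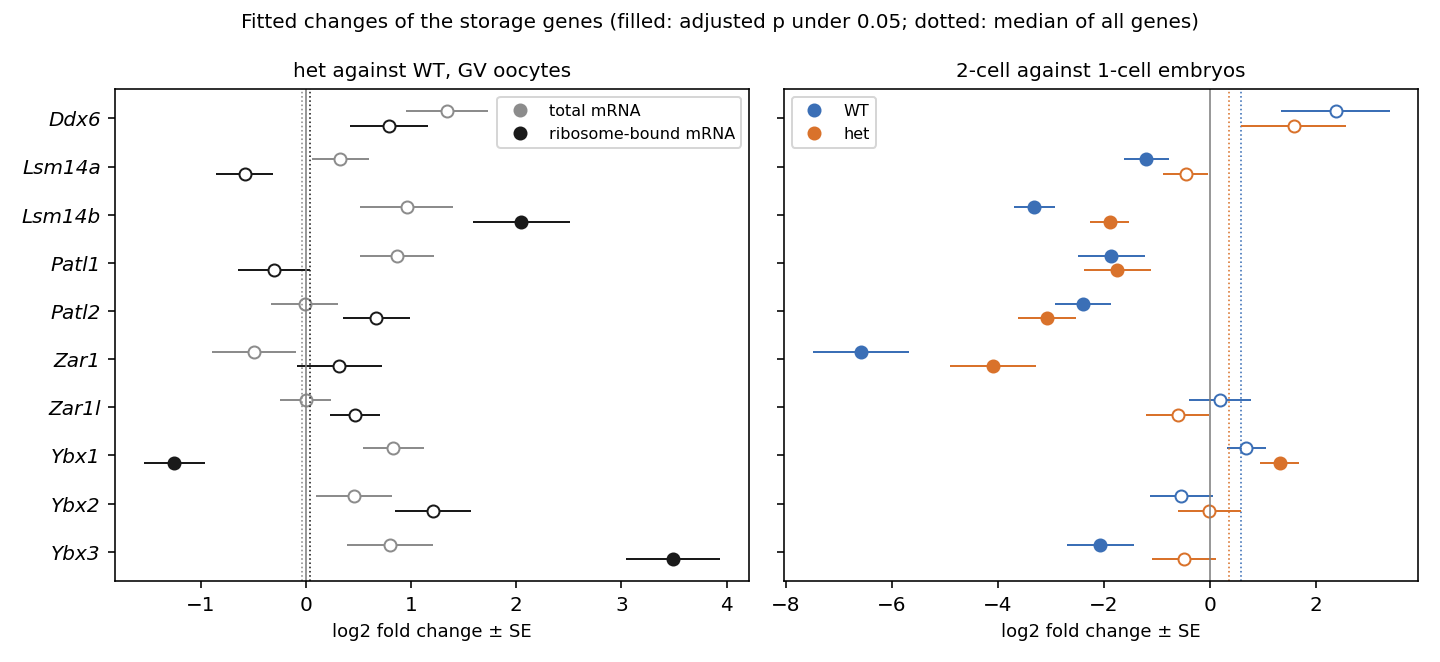
Fitted log2 fold changes with standard errors for the 10 genes, left for het against WT GV oocytes in total mRNA (grey) and ribosome-bound mRNA (black), right for 2-cell against 1-cell embryos in WT (blue) and het (orange). Filled points passed an adjusted p of 0.05, dotted lines mark the median of all genes, and the largest departures are Ybx3 at 3.49 on the left and Zar1 at -6.58 on the right.

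Of the wider storage list, 12 of 47 genes were higher and 14 lower at the 2-cell stage in WT, and 10 higher and 11 lower in het embryos, with list medians of -0.63 and -0.49. The shares of all genes were 28.5% higher and 17.9% lower in WT, and 22.8% higher and 13.9% lower in het embryos. Regulators of the oocyte's poly(A) tails and translation were among those that fell. Cpeb1 fell by 2.36 (SE 0.41) in WT and 2.60 (SE 0.41) in het, and Dazl fell by 4.32 (SE 0.75) and 2.81 (SE 0.70). The double-stranded RNA-binding gene Stau2 fell by 5.12 (SE 0.67) and 4.12 (SE 0.64), and the decapping cofactors Dcp1a and Edc4 by 4.22 (SE 0.50) and 1.70 (SE 0.42) in WT and by 3.08 (SE 0.48) and 1.52 (SE 0.42) in het. Elavl2, Atxn2l, Igf2bp2, Stau1 and Msi2 were lower in both genotypes, with log2 fold changes in WT of -1.14, -2.12, -1.92, -1.41 and -1.84. Eif4e1b, the oocyte form of eIF4E, at -3.12 (SE 0.83), Ddx3x at -1.42, Lsm3 at -1.44 and Eif4enif1 at -1.16 were called lower in WT, and Atxn2 at -1.32 in het.

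Genes that rose in both genotypes were Eif4e2 by 4.69 (SE 0.66) in WT and 3.72 (SE 0.63) in het, Pabpc1, the somatic poly(A)-binding protein, by 3.89 (SE 0.72) and 3.22 (SE 0.70), and Gigyf2, the partner of Eif4e2, by 3.04 (SE 0.55) and 2.91 (SE 0.55). Fxr2 rose by 3.23 and 2.53, Lsm4 by 2.74 and 3.04, Fmr1 by 2.75 and 1.31, Strap by 1.40 and 1.41, Lsm2 by 1.36 and 1.52 and Igf2bp1 by 6.53 and 5.15. Celf1 at 1.88 and Lsm6 at 1.50 were among those called higher in WT, and Eif4e at 2.17 in het. For het against WT at 1 stage no gene of the list passed, with 3 at an unadjusted p under 0.05 in edgeR in 1-cell and 0 in 2-cell embryos. Of all 23656 genes, 889 and 1318 were under 0.05.

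Arrested het embryos, at 1 cell after 24 h, were set against het embryos before culture and against het embryos that had divided over the same time. These comparisons share the arrested libraries. Patl2 was lower in arrested than in het 1-cell embryos, at 2.73, 6.63 and 4.86 CPM against 26.0, 15.1 and 26.5 CPM without overlap, a log2 fold change of -2.24 (SE 0.53, adjusted p = 0.0134). The call ended without het 1-cell library 1, without library 3 and without both (-1.92, SE 0.80). It also ended in the fit of the compared groups alone (-2.23, SE 0.60, adjusted p = 0.107), in which none of 17310 genes was called. Zar1 read 162, 44.6 and 51.2 CPM in arrested embryos, a log2 fold change of -1.77 (SE 0.74, adjusted p = 0.115) against het 1-cell embryos. Without arrested library 1, the highest, it was -2.66 (SE 0.82, adjusted p = 0.0294). Of all genes 9.97% were called higher and 3.91% lower, against 0 and 1 of the 10. Of 14 oocyte markers 6 were lower and none higher, and of 14 markers of the 2-cell stage 11 were higher, and their part in these values was not tested.

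Against het 2-cell embryos of the same culture time, Lsm14b was higher in arrested embryos. It read 41.9, 27.5 and 40.4 CPM against 16.8, 14.2 and 14.6 CPM without overlap, a log2 fold change of 1.27 (SE 0.36, adjusted p = 0.0443). The call ended under 8 of 11 alternatives, RLE scaling among them, with adjusted p up to 0.343, while the log2 fold change stayed between 1.08 and 1.34. Zar1 at 2.33 (SE 0.75, adjusted p = 0.0638) did not pass, with every arrested library above the highest het 2-cell library at 26.8 CPM. Of all genes 3.85% were called higher and 4.55% lower in arrested embryos, against 1 and 0 of the 10.

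Against WT 1-cell embryos, arrested het embryos had less Zar1 and Lsm14b. Zar1 stood at -2.90 (SE 0.77, adjusted p = 0.0174) and Lsm14b at -1.35 (SE 0.36, adjusted p = 0.0193) on the log2 scale, and neither gene's libraries overlapped. Each call ended under 5 of 11 alternatives, among them the fit of the 2 groups alone and each fit without WT 1-cell library 2 or 3 or arrested library 2, with adjusted p up to 0.0635 for Zar1 and 0.146 for Lsm14b. Of all genes 14.1% were called higher and 5.44% lower, against 0 and 2 of the 10. Oocyte markers were lower in 9 of 14 cases and higher in none, 10 of 14 markers of the 2-cell stage were higher, and their part was not tested. In this comparison genotype, culture and arrest cannot be told apart.

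The 3 arrested libraries were spread widely for several genes. Ddx6 had no count in arrested library 1, where 3 counts would be 0.180 CPM, and 14.7 and 13.4 CPM in libraries 2 and 3. Lsm14a read 380.5, 120.2 and 249 CPM, Ybx1 56.1, 112 and 126 CPM, and Zar1l 3.58, 23.3 and 13.2 CPM. For Lsm14a library 1 was the highest, and for Ybx1 and Zar1l it was the lowest, the same library that had the low sum of 2-cell markers. Ybx2 read 13.3, 6.43 and 29.7 CPM, Ybx3 17.9, 21.0 and 76.2 CPM and Patl1 12.5, 25.6 and 7.87 CPM. Ybx2 and Ybx3 were highest in library 3 and Patl1 was highest in library 2.

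In the storage list, 5 genes were lower and none higher in arrested than in het 1-cell embryos, against 3.91% and 9.97% of all genes. They were Cpeb1 at -2.31 (SE 0.41), Stau1 at -1.61, Dcp1a at -1.50, Edc3 at -1.47 and Igf2bp2 at -1.36. In fits of the compared groups alone, 0 of 17310 genes were called here and 0 of 19474 against het 2-cell embryos. The list calls in these 2 comparisons therefore ended there, and other alternatives were not examined for the list. Against het 2-cell embryos 5 were higher and 4 lower, beside 3.85% and 4.55% of all genes. Dazl at 3.01 (SE 0.71), Stau2 at 2.57 (SE 0.60), Elavl2 at 1.90, Dcp1a at 1.58 and Dcp2 at 1.50 were higher, and Gigyf2 at -2.96 (SE 0.55), Eif4e2 at -2.68 (SE 0.60), Pabpc1 at -2.28 and Celf1 at -1.50 were lower. Against WT 1-cell embryos Igf2bp1 at 5.37, Lsm4 at 1.89, Eif4e2 at 1.77 and Fmr1 at 1.21 were higher, and Lsm5 at -2.80, Cpeb1 at -2.13, Dcp1a at -2.06, Edc3 at -1.81, Stau1 at -1.44 and Igf2bp2 at -1.41 were lower.

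The genes whose pattern was most like that of a member were sought for the 3 members with the widest range of log2 group means, Zar1 at 8.69, Patl2 at 6.12 and Zar1l at 5.60, a range taken over 9 groups of 2 separately scaled tables. Likeness was the mean of 2 Pearson correlations of log2 CPM, over the 8 GV and over the 15 embryo libraries, among 5903 genes. Nearest to Zar1 were Oas1e (mean r = 0.932), G3bp2 (0.929) and Asz1 (0.925). Patl2 was nearest to Grn (0.890), Dusp1 (0.874) and Zp1 (0.866), and Zar1l to Caml (0.881), Ndufa8 (0.873) and Tpmt (0.868). Points of a correlation share stage, library and depth, so these values are a description.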

How the data were processed

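Raw read counts per gene for 8 GV and 15 embryo libraries were deposited by the authors in 2 tables of 56196 genes each. Per the labels' protocols, mRNA was amplified at full length by a single-cell method, and ribosome-bound mRNA was captured with RiboLace. The submitters' processing notes name the build mm10, the counter featureCounts 1.6.5, the aligner HISAT2 2.1.0 and the trimmer Trim Galore 0.6.4. Settings for strand and multi-mapped reads are not stated there, and no molecular identifiers are named.

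The counts were fitted with edgeR 4.0.16 (R 4.3.3, limma 3.58.1) using the quasi-likelihood F test, filterByExpr, TMM scaling and 1 model per table holding all its groups. Benjamini-Hochberg adjustment ran over all 22409 (GV) or 23656 (embryo) genes tested, and a call was an adjusted p under 0.05. The SE is the log2 fold change divided by the square root of F, and 95% intervals use the t quantile at the test's degrees of freedom. Tests were checked on simulated counts. Many genes changed in the simulation were not called, so a gene that did not pass may still differ. Exon lengths came from GENCODE vM21, which matched 54587 of the IDs with version. Likeness used log2 CPM with a small offset and left out genes whose mean was under 10 CPM. The correlations of deviations given below used log2 CPM with a prior count of 2. Alternatives were RLE scaling, no filter on low counts, replicate blocks, the compared groups alone, DESeq2 1.42.0 and leaving out each library.

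Both fractions of a GV specimen share its number in the labels, which pairs them; deviations of same-numbered fractions correlated at 0.2625 in het and 0.0577 in WT across 9073 genes. The genes named are the 10 members, the called genes of the storage list and the 3 genes most like each of 3 members. A called gene of the storage list is not reported here. The members and lists were chosen with earlier results of these data known.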

Additional observations from a re-analysis of the deposited data

How the results depend on the processing

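Of 21 calls among the 10 genes, 6 held under every alternative and 15 were lost under at least 1. Over 1480 alternative values, 1375 kept their side of the threshold, 43 gained a call and 62 lost one. None reversed, where a reversal was a change of sign with a call in either fit or with both values beyond their SE. Smaller changes of sign were counted as kept. For Ybx1 in het against WT 1-cell embryos, -0.06 became 0.23 without het 1-cell libraries 1 and 3. The cause of these changes was not tested.

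The number of the 10 genes called, 3 in the het translatome, was 4 without the filter on low counts or by DESeq2, with Ybx2 added, and 1 to 2 with 1 library left out. In the transcriptome it was 0, and 2 without the filter on low counts, 1 by DESeq2 and 0 to 3 with 1 library left out. For the interaction of genotype and fraction it was 0, and 2 without the filter, 2 by DESeq2 and 0 to 1 with 1 library left out. Between fractions it was 2 in WT, with 3 without the filter, by DESeq2 or with the specimen block, Lsm14b added in each, 1 from the compared groups alone and 0 to 2 with 1 library left out, and 1 in het, with 3 without the filter, 2 from the compared groups alone, 3 by DESeq2 and 0 to 3 with 1 library left out. Between stages it was 6 in WT, with 8 by DESeq2 or from the compared groups alone, Ddx6 and Ybx1 added in both, and 3 to 5 when 1 library was left out, and 5 in het, with 6 from the compared groups alone and 2 without het 1-cell libraries 1 and 3. Against het 1-cell embryos the arrested embryos had 1, with 0 without those libraries, 0 from the compared groups alone, 2 by DESeq2 and 0 to 2 with 1 library left out. Against het 2-cell embryos they had 1, with 0 under RLE scaling, 0 without the filter, 0 from the compared groups alone, 3 by DESeq2 and 0 to 1 with 1 library left out. Against WT 1-cell embryos they had 2, with 1 without the filter, 0 from the compared groups alone and 0 to 3 with 1 library left out. The count was 0 under all alternatives for het against WT at either stage and for the stage interaction.

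With the specimen as a replicate block, 2 members were called between fractions in het oocytes in place of 1, and the interaction had 7 called genes in place of 3. Elsewhere groups share only a number. For het against WT the same-numbered deviations correlated at -0.338 in the translatome and -0.4431 in the transcriptome, and a number block gave 670 and 414 called genes, and crossed numbers 1610 and 1169, with 1 member called in the transcriptome under crossed numbers. In embryos same-numbered pairs had a median r of -0.012, and the number block gave 0 members called for arrested against 2-cell embryos.

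Counts of called genes moved with the settings. They ranged from 154 to 2113 (1034 as reported) in the translatome, 69 to 1554 (572) in the transcriptome, 0 to 108 (3) for the fraction interaction, 1195 to 4220 (3269) between WT fractions and 1 to 3033 (1814) between het fractions. In embryos they ranged from 0 to 284 (0) for genotype at 1 cell, 0 to 143 (1) at 2 cells, 7972 to 13424 (10981) for stage in WT, 2014 to 11047 (8694) for stage in het and 0 to 143 (1) for the stage interaction. For arrested embryos they were 0 to 5938 (3283) against het 1-cell, 0 to 5029 (1986) against het 2-cell and 579 to 7477 (4624) against WT 1-cell embryos. Leaving out a GV library, or het 1-cell libraries 1 and 3, leaves an arm with 1, which is then assumed to vary like the other groups. Groups of 2 or 3 libraries limit the precision, and reads without molecular identifiers are not independent molecules.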

Other observations

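The summed share of all counts held by the 10 genes was lower in embryo than in GV libraries and lower in 2-cell than in 1-cell libraries. They held 0.2399% to 0.4624% of counts in GV libraries, 0.07393% to 0.1298% in WT 1-cell, 0.09435% to 0.121% in het 1-cell and 0.03575% to 0.04839% in 2-cell libraries. The arrested libraries, still at 1 cell, lay at 0.04079% to 0.04934%, below every 1-cell library and overlapping the 2-cell range. That separation depends on the scale. As TMM-scaled CPM the 10 genes summed to 690.1, 401.8 and 611.5 in arrested libraries 1 to 3. In het 1-cell libraries 1 to 3 they summed to 575.9, 1134 and 562.4, so the 2 groups overlapped. Zar1 and Zar1l carried most of the sum in WT GV transcriptome libraries, at means of 1676 and 649.4 CPM, and not every gene followed the sum. Lsm14a averaged 92.6 CPM there and 308 CPM in WT 1-cell libraries, and Patl1 5.97 and 21.8 CPM. GV and embryo libraries are separate tables scaled separately, and no test was made of these shares.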
